A study of Mus musculus with 36 samples.

Results

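Osr2, Foxc1, Foxc2, Foxd1, Tbx18, Lmx1b, Zic1, Zic2 and Zic5 encode transcription factors of the periocular, cranial and meningeal mesenchyme, and these 9 genes, of 53379 in the count tables, were followed across mouse tumors of the retro-orbital space, the brain and the kidney. They were selected on their levels at the 3 tumor sites in these same libraries, so their differences between the sites are described here and carry no test. Tests of the 9 genes are given for the kidney and fetal comparisons, which as contrasts did not choose the genes, although the kidney tumors enter both kinds of comparison. Other gene lists are tested between the sites as well, and these lists too were chosen with earlier results of these data known. All 9 symbols matched 1 Ensembl gene each, and all 9 had counts at every tumor site.

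The tumors came from 6 mice of the genotype Sglt2-Cre; ASPSCR1-TFE3 LSL/+, in which Cre driven by the promoter of the proximal tubule transporter Sglt2 removes a stop cassette before the fusion gene of translocation renal cell carcinoma. Kidney tumors of 6 mice (11 libraries), retro-orbital tumors of 4 mice, brain tumors of 3 mice and non-transformed kidneys of 4 mice shared this genotype and in part the same animals, and the controls were 6 kidney libraries of 3 Sglt2-Cre mice without the fusion allele. A second table held dysmorphic kidneys of 5 Pax8-Cre; ASPSCR1-TFE3 LSL/+ fetuses and kidneys of 3 control fetuses labelled Pax8-Cre, Pax8 being a promoter of the early renal epithelium. Neither age nor sex was given, every sample was formalin-fixed paraffin-embedded tissue, and libraries of 1 animal and tissue were summed so that the animal was the unit throughout.

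As background, the mesenchyme of the face, orbit and brain coverings comes from the cranial neural crest and the cranial mesoderm, and a few families of factors pattern it. Forkhead factors of the Foxc group are needed for the meninges, the anterior eye and the skull base, Osr2 for the palate and the eyelids, Lmx1b for the periocular mesenchyme and the roof plate, Tbx18 for mural and ureteric mesenchyme, and Foxd1 for the stroma of the kidney and, in the head, for meningeal and perivascular cells. Zinc finger factors of the Zic family mark the meninges, the dorsal neural tube and the granule neurons of the cerebellum. Several of the 9 also act in the kidney: Lmx1b in podocytes, Foxd1 and Osr2 in stroma and nephric mesenchyme, and Foxc1 and Foxc2 in the nephric mesenchyme and podocytes.

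Levels are given as CPM, the deposited counts per 1000000 counts of the library total after a trimmed mean of M values (TMM) correction within each of the 2 tables. Library totals ran from 80205573 to 121415057 counts, so low CPM values rest on few counts. The targeted lineage was checked by Gpnmb, a melanosome gene that the fusion protein is known to drive, and by Pax8, a renal epithelial factor. Gpnmb was between 2650 and 7030 CPM in the 13 tumor samples and between 1.56 and 2.44 CPM in the control kidneys. In the non-transformed kidneys of mice 1, 3, 4 and 5 it was 108, 450, 369 and 119 CPM. These kidneys lay below every tumor but far above every control, so they were not free of this marker. Pax8 was between 29.6 and 53.1 CPM in kidney tumors, at most 0.95 CPM in brain tumors and at most 3.25 CPM in retro-orbital tumors, so the renal marker was low away from the kidney. In bulk tissue, fewer cells of a type and less RNA per cell cannot be told apart.

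Several samples stood apart in ways that touch these genes. In the kidney tumor of mouse 4, 1 of the 2 libraries held 39.8 CPM of Zic1 and the other 0.143 CPM, with 10.4 against 0.0102 CPM of Gad2, a marker of inhibitory neurons. The results below are therefore given with both libraries and, as an alternative chosen after the data were seen, without the first of them. In the retro-orbital tumor of mouse 5, the summed level of 8 lacrimal and Harderian gland markers was 443 CPM against at most 1.7 CPM in the other 3. That of 10 renal tubule markers, proximal and distal together, was 1328 CPM against 119 to 217.5 CPM. In the brain tumor of mouse 1, the 12 neuronal markers summed to 114 CPM against 1364 and 198 CPM in mice 2 and 4, and 25 cranial mesenchyme factors to 333 CPM against 180.2 and 136.5 CPM. The kidney tumor of mouse 5 stood apart in Foxc1, and the non-transformed kidney of mouse 3 and dysmorphic fetus 5 in Zic genes. Control fetus 3 stood apart in Foxc1, Foxc2 and Foxd1. These values are given below.

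**Figure D1:**
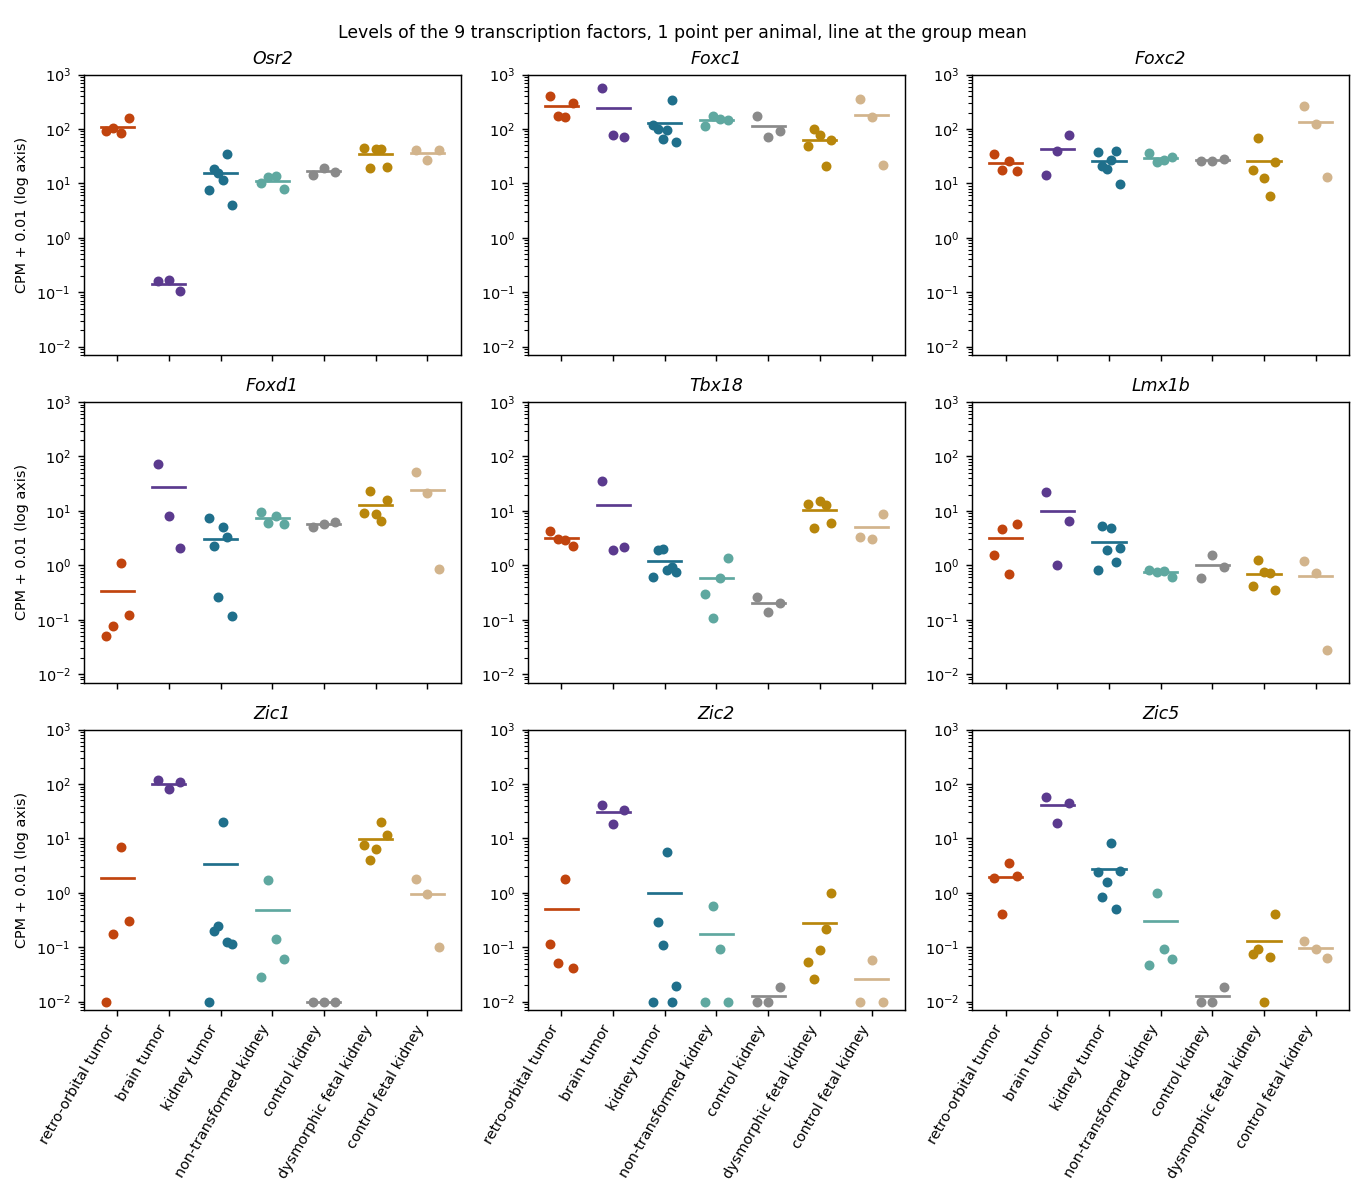
Levels of the 9 transcription factor genes in CPM + 0.01 (log axis) for every animal of the 7 groups, 1 point per animal and a bar at the group mean. Osr2 sits between 83.5 and 162 CPM in the 4 retro-orbital tumors and below 0.2 CPM in the 3 brain tumors, while Zic1, Zic2 and Zic5 are highest in the brain tumors.

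Osr2 (ENSMUSG00000022330.5, chromosome 15, 35296098 to 35303305, plus strand, GRCm38), an odd-skipped zinc finger factor of palatal, eyelid and nephric mesenchyme, was the only one of the 9 whose levels did not overlap between any of the 3 sites. In the retro-orbital tumors it stood at 92.4 CPM in mouse 2, 104 CPM in mouse 3, 83.5 CPM in mouse 5 and 162 CPM in mouse 6. In the kidney tumors of mice 1 to 6 it stood at 7.55, 18.5, 15.4, 11.7, 34.2 and 4.02 CPM. In the brain tumors of mice 1, 2 and 4 it was 0.148, 0.159 and 0.0945 CPM, on 16, 20 and 10 counts. Every retro-orbital tumor was above every kidney tumor, and every brain tumor was below every sample of every other group. The mean was 110.2 ± 35.2 CPM (SD, n = 4) in the retro-orbital tumors, 15.2 ± 10.6 CPM (n = 6) in the kidney tumors and 0.134 ± 0.0344 CPM (n = 3) in the brain tumors.

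On the log2 scale the Osr2 difference was 2.84 (SE 0.49) between retro-orbital and kidney tumors and -6.73 (SE 0.84) between brain and kidney tumors. The kidney tumors spread over a wider range, from 4.02 to 34.2 CPM, than the non-transformed or control kidneys. They lay around the level of those kidneys, 10.1, 12.9, 13.4 and 7.85 CPM in the non-transformed kidneys of mice 1, 3, 4 and 5 and 13.9, 19.2 and 16.4 CPM in the control kidneys.

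Foxc1 (ENSMUSG00000050295.4, chromosome 13, 31806633 to 31812476, plus strand), a forkhead factor required for the meninges and the anterior eye, differed more between animals than between sites. The retro-orbital tumors held 395, 173, 167 and 301 CPM in mice 2, 3, 5 and 6, the brain tumors 576, 76.4 and 69.9 CPM in mice 1, 2 and 4, and the kidney tumors 117, 97.9, 65.6, 94.7, 346 and 57.3 CPM in mice 1 to 6. The kidney tumor of mouse 5 stood apart at 346 CPM with the next at 117 CPM, and the ranges of all 3 sites overlapped. The log2 difference from kidney tumors was 0.97 (SE 0.49) for retro-orbital tumors and 0.99 (SE 0.77) for brain tumors, and the latter was -0.78 without mouse 1.

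Foxc2 (ENSMUSG00000046714.7, chromosome 8, 121116171 to 121118895, plus strand), the close paralog of Foxc1 that acts in lymphatic and nephric tissue, did not follow it. It stood at 34.2, 17.5, 25.6 and 17.1 CPM in the retro-orbital tumors, 14.1, 38.8 and 77.3 CPM in the brain tumors, and 37.8, 20.8, 18.6, 27.1, 39.2 and 9.76 CPM in the kidney tumors. Per kilobase of exon, the ratio of Foxc2 to Foxc1 was 0.0524 in the brain tumor of mouse 1, 1.09 in that of mouse 2 and 2.37 in that of mouse 4, against 0.122 to 0.329 in retro-orbital and 0.243 to 0.694 in kidney tumors. The brain tumors thus held both the lowest and the highest ratio of the tumors, with mouse 1 rich in Foxc1 and mouse 4 rich in Foxc2.

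Foxd1 (ENSMUSG00000078302.5, chromosome 13, 98354242 to 98359305, plus strand), the marker of renal stromal progenitors, was low in the retro-orbital tumors at 0.0411, 0.0676, 1.08 and 0.114 CPM in mice 2, 3, 5 and 6. The only one of these above 0.2 CPM was mouse 5, the sample with the gland and tubule transcripts. The brain tumors held 72.4, 7.995 and 2.08 CPM in mice 1, 2 and 4, all above the retro-orbital range, and the kidney tumors 7.49, 2.22, 0.256, 5.08, 3.29 and 0.106 CPM. Non-transformed kidneys (5.86 to 9.62 CPM) and control kidneys (5.12 to 6.19 CPM) lay in a narrow band near the upper end of the kidney tumors. The log2 difference was 6.44 (SE 1.72) between brain and retro-orbital tumors, and 3.99 to 8.56 over the alternative settings.

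Tbx18 (ENSMUSG00000032419.8, chromosome 9, 87702800 to 87731260, minus strand), a T-box factor of mural, sinus and ureteric mesenchyme, stood at 4.34, 3.08, 2.93 and 2.25 CPM in the retro-orbital tumors of mice 2, 3, 5 and 6. All 4 were above every kidney tumor, which held 0.605, 1.92, 1.95, 0.826, 0.941 and 0.754 CPM in mice 1 to 6. The brain tumors held 34.7 CPM in mouse 1 but 1.94 and 2.14 CPM in mice 2 and 4, so that the difference of brain from retro-orbital tumors was 2.09 (SE 1.01) with mouse 1 and -0.59 without it. Between retro-orbital and kidney tumors it was 1.40 (SE 0.38).

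Lmx1b (ENSMUSG00000038765.13, chromosome 2, 33560965 to 33640511, minus strand), a LIM homeodomain factor of podocytes and periocular mesenchyme, had overlapping levels at the 3 tumor sites. It was 1.52, 4.71, 0.674 and 5.75 CPM in the retro-orbital tumors, 22.7, 1.02 and 6.64 CPM in the brain tumors, and 0.808, 5.26, 1.91, 4.92, 1.16 and 2.04 CPM in the kidney tumors. Kidney without tumor was tighter, 0.601 to 0.805 CPM in the non-transformed kidneys and 0.583 to 1.53 CPM in the controls. The 2 kidney tumor libraries of 1 mouse could differ as much as the mice did: in mouse 2 they held 10.9 and 0.337 CPM.

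Zic1, Zic2 and Zic5 were the genes of the brain tumors. Zic1 lies on chromosome 9 (ENSMUSG00000032368.14, 91358058 to 91365810, minus strand), next to and overlapping Zic4 on the opposite strand, and Zic2 (ENSMUSG00000061524.8, 122475435 to 122479852, plus strand) and Zic5 (ENSMUSG00000041703.7, 122456795 to 122465677, minus strand) form a pair on chromosome 14 whose start sites lie 9758 bp apart. The sequences upstream of Zic1 and Zic5 are shown because these genes had their highest levels in the brain tumors, and that of Tbx18 because Tbx18 is the member called in the test of kidney tumors against control kidneys below. They are the stretches directly before the annotated gene, all on the minus strand, taken from the RefSeq promoter windows of GRCm38.p6 at chr9:91365811-91366018 (Zic1), chr14:122465678-122465908 (Zic5) and chr9:87731261-87731510 (Tbx18), and capitals mark CACGTG, the E-box that MiT/TFE factors such as TFE3 are known to bind:
Zic1: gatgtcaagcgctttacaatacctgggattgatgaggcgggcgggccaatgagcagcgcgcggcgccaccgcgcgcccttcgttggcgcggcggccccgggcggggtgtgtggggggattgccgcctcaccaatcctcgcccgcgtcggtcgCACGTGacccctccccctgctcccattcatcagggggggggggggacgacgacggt
Zic5: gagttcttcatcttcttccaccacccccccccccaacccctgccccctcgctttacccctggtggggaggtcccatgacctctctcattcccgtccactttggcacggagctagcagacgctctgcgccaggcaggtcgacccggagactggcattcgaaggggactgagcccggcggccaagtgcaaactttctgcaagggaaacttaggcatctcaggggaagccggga
Tbx18: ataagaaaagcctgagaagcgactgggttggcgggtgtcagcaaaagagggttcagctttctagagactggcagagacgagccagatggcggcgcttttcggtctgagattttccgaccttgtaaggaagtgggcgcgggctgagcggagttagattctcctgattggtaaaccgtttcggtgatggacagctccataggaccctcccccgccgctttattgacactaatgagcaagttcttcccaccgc

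The search was for CACGTG, which reads the same on both strands, and 6 of the 9 genes were in the table (Foxc1, Foxd1, Tbx18, Lmx1b, Zic1 and Zic5). The Lmx1b window (chr2:33641099-33641348) does not adjoin the annotated gene, which ends at 33640511. The start of that window was not found in an annotated transcript of Lmx1b, so it may not be the promoter of the annotated gene. The hexamer was in the Zic1 window only, 56 bases before the annotated gene, and in 6.02% of all 32851 windows of 250 bases. These letters describe the window and no binding was measured. The GC content of the 6 windows ran from 54.0% (Tbx18) to 70.8% (Foxc1), all above the median of 52.4% over all windows, and the observed to expected CpG ratio from 0.46 (Zic5) to 0.99 (Zic1) against a median of 0.37.

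Zic1 stood at 117, 80.3 and 107 CPM in the brain tumors of mice 1, 2 and 4. In the kidney tumors it was 0 CPM in mouse 1, between 0.106 and 0.236 CPM in mice 2, 3, 5 and 6, and 19.98 CPM in mouse 4. In the retro-orbital tumors it was 0, 0.169, 6.90 and 0.292 CPM in mice 2, 3, 5 and 6. Every brain tumor was above every other sample, and the 2 samples outside the brain with more than 2 CPM in the adult table were the kidney tumor of mouse 4 and the retro-orbital tumor of mouse 5.

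Zic2 stood at 41.6, 18.1 and 33.2 CPM in the brain tumors of mice 1, 2 and 4, and at 0, 0.284, 0.102, 5.64, 0 and 0.00966 CPM in the kidney tumors of mice 1 to 6. In the retro-orbital tumors it was 0.103, 0.0423, 1.80 and 0.0325 CPM in mice 2, 3, 5 and 6. The same 2 samples outside the brain were highest.

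Zic5 stood at 57.9, 19.5 and 45.2 CPM in the brain tumors. Unlike Zic1 and Zic2 it was above 0.3 CPM in every tumor of every site: 2.43, 0.841, 1.59, 8.28, 0.490 and 2.55 CPM in the kidney tumors of mice 1 to 6, and 1.89, 0.397, 3.58 and 2.05 CPM in the retro-orbital tumors of mice 2, 3, 5 and 6. In the control kidneys it rested on 0, 0 and 2 counts.

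The log2 difference of brain from retro-orbital tumors was 5.81 (SE 1.84) for Zic1, 5.99 (SE 1.55) for Zic2 and 4.40 (SE 0.74) for Zic5. Against kidney tumors it was 4.96 (SE 1.99), 5.02 (SE 1.99) and 4.00 (SE 0.79). Without the 1 kidney tumor library of mouse 4 the last 3 values became 9.69, 8.83 and 4.94, so the difference was larger for all 3 genes without that library. Between retro-orbital and kidney tumors the same step turned the sign of all 3, from -0.91 to 3.83 for Zic1, from -1.03 to 2.81 for Zic2 and from -0.48 to 0.51 for Zic5, and what then remained for Zic1 and Zic2 lay in mouse 5.

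Of 12 neuronal markers 3 rose and 0 fell in brain against kidney tumors (Rbfox3, Stmn2 and Tubb3), with a median log2 change of 4.75 over the 12. Of 10 glial markers 1 rose and 0 fell, with a median of 4.49. Over all genes tested 4.54% rose and 4.20% fell, and with the animal as a block none of these calls remained. Against retro-orbital tumors the medians were 4.71 and 5.07. Among the brain tumors Gad2 was 0.04, 253.9 and 7.71 CPM and Snap25, a synaptic protein gene, 2.20, 279 and 14.5 CPM in mice 1, 2 and 4, whereas Rbfox3, a nuclear marker of neurons, was 85.6, 54.9 and 54.9 CPM, highest in mouse 1 like Zic1. The list of cerebellar granule markers summed to 15.4, 282 and 37.9 CPM, against 53.2 to 615 CPM in the kidney tumors. In the kidney tumors Neurod1, Gabra6, Cbln1, Cbln3 and Barhl1 were each at most 0.302 CPM, Calb2 at most 0.564 and Fat2 at most 1.30 CPM. The sums there came from other listed genes, so no granule signal is read from them. Calb2, Cbln1 and Neurod1 were 32.6, 9.45 and 0.769 CPM in the brain tumor of mouse 2 and below 0.1 CPM in those of mice 1 and 4. Barhl1, a defining factor of the granule lineage, was at 0 in all 3 brain tumors. Meningeal markers summed to 3064, 829 and 1394 CPM over 18 genes, highest in mouse 1. The part of any of these lists in the Zic levels was not tested.

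**Figure D2:**
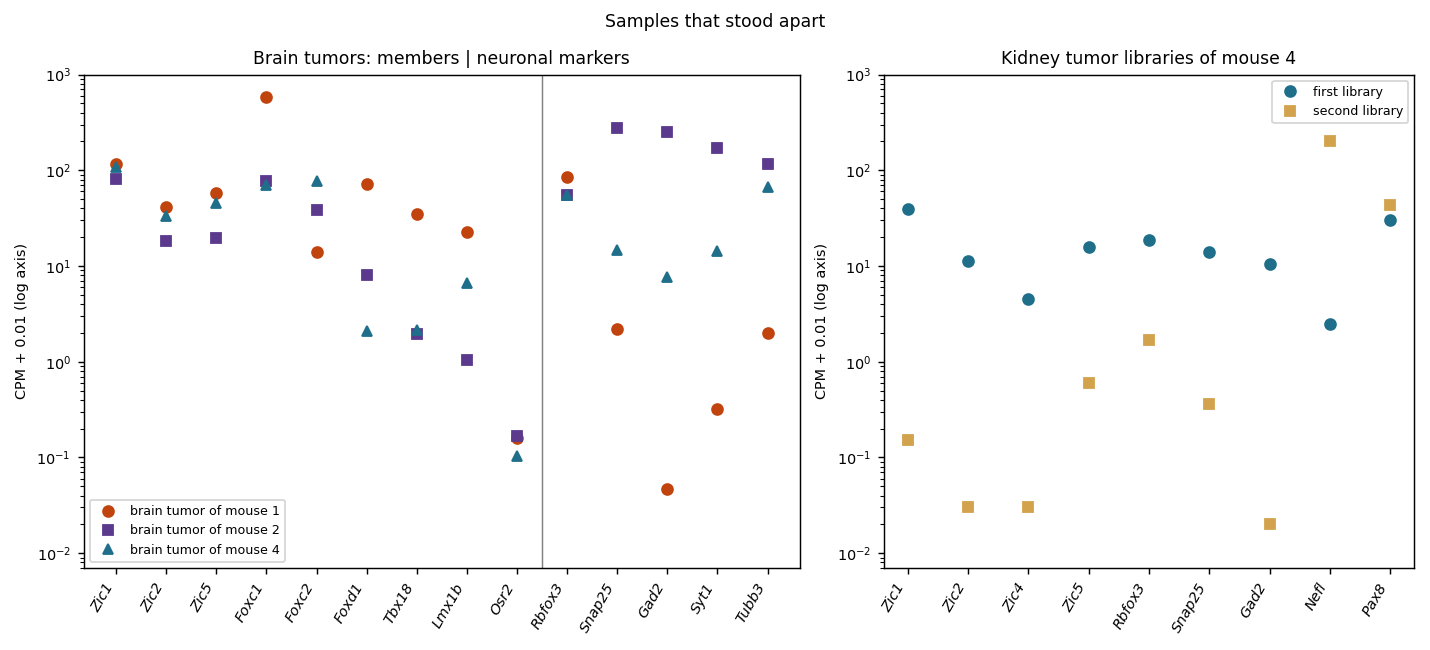
Levels (CPM + 0.01, log axis) of the 9 factors and 5 neuronal markers in the 3 brain tumors (left), and of Zic genes, neuronal markers and Pax8 in the 2 kidney tumor libraries of mouse 4 (right), 1 point per sample or library. Zic1 spans 80.3 to 117 CPM over the 3 brain tumors, Rbfox3 54.9 to 85.6 CPM and Gad2 0.04 to 253.9 CPM, and only 1 of the 2 libraries of mouse 4 holds Zic1, at 39.8 CPM.

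The make-up of the Zic transcripts also differed by sample. Per kilobase of exon, where both genes had over 3 counts, the ratio of Zic5 to Zic1 was 0.576, 0.283 and 0.490 in the brain tumors of mice 1, 2 and 4. The kidney tumor of mouse 4 (0.482) and the retro-orbital tumor of mouse 5 (0.605) lay at the brain level. The other kidney tumors lay at 5.10, 7.85, 4.85 and 27.9 in mice 2, 3, 5 and 6 and the other retro-orbital tumors at 2.74 and 8.15 in mice 3 and 6, with more Zic5 than Zic1. These values rest on 42, 46, 12 and 22 counts of Zic1 in the kidney tumors and 20 and 36 in the retro-orbital tumors. In the non-transformed kidneys of mice 3, 4 and 5 the ratio was 0.675, 0.728 and 1.16, on 176, 16 and 4 counts of Zic1. The ratio of Zic2 to Zic5 split the tumors the same way, at 1.22 to 1.57 in the brain tumors, 1.16 in the kidney tumor of mouse 4 and 0.853 in the retro-orbital tumor of mouse 5, against 0.027 to 0.572 in the other 5 tumors with a value. It was 0.982 and 1.70 in the non-transformed kidneys of mice 3 and 4. The ratio of Zic4 to Zic1 was 0.0547 to 0.0750 over the 6 tumors where it could be formed. It was 0.1095 in the non-transformed kidney of mouse 3 and 0.0193 to 0.0431 in the fetal kidneys. Zic1 and Zic4 overlap on opposite strands, and the strand setting of the counting is not given in the sources used here, so reads of the overlap may be shared between them.

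**Figure D3:**
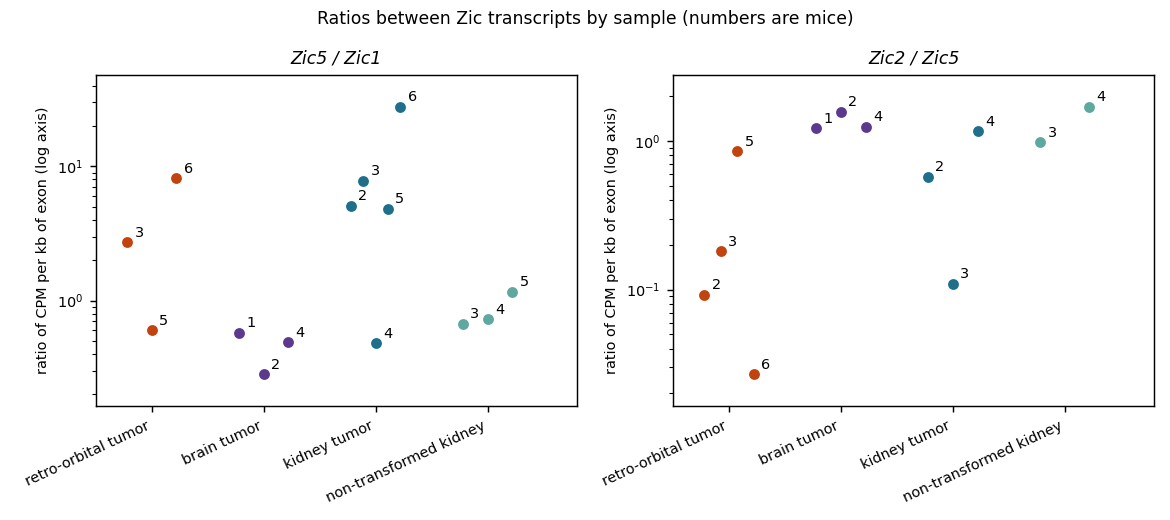
Ratios of Zic5 to Zic1 and of Zic2 to Zic5 per kilobase of exon (log axes) in each adult fusion sample where both genes had over 3 counts, 1 point per sample with the mouse number beside it. The kidney tumor of mouse 4 and the retro-orbital tumor of mouse 5 lie beside the brain tumors, and the remaining kidney and retro-orbital tumors have Zic5 above Zic1.

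Counted over the 9 genes, 2 had retro-orbital tumors wholly above kidney tumors (Osr2 and Tbx18) and 0 were wholly below, where 8.33% and 7.76% of the 22136 genes passing the filter did so. For brain against kidney tumors, 3 were wholly above (the Zic genes) and 1 wholly below (Osr2), beside 5.36% and 9.79% of 23391 genes. For brain against retro-orbital tumors, 4 were wholly above (Foxd1 and the Zic genes) and 1 wholly below (Osr2), beside 7.19% and 11.3% of 21037 genes. The genes were chosen on these contrasts, so nothing is read from the counts, and the 3 contrasts share their tumors. Per kilobase of exon, Foxc1 had the highest mean of the 9 in all 3 sites (44.3, 41.2 and 22.2 CPM per kilobase in retro-orbital, brain and kidney tumors). Osr2 was next in the retro-orbital tumors (30.4) and last in the brain tumors (0.0369), and Zic1 was next to Foxc1 in the brain tumors (17.8), where the spread of Foxc1 covers it.

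The comparison of kidney tumors with control kidneys asks which of the factors are gained with the tumor in the organ where the fusion gene is switched on. Of the 6 genes with over 3 counts in the control kidneys, all but the Zic genes, 1 was called at an adjusted p under 0.05 by edgeR's quasi-likelihood test with Benjamini-Hochberg adjustment (Tbx18, higher), where 19.0% of all 23578 genes tested were called in either direction. The kidney tumor values were also among those that chose the genes, so the call is not independent of that choice. Tbx18 was 1.17 ± 0.605 CPM (n = 6) in kidney tumors and 0.252, 0.126 and 0.195 CPM in the 3 control kidneys, a log2 change of 2.63 (SE 0.52, adjusted p = 0.0111). All 6 tumors were above all 3 controls, and the call was lost without control mouse 2 (adjusted p = 0.0661) or 3 (adjusted p = 0.0594). Fibroblast markers moved with it, 5 of 10 rising and 0 falling, with sums of 1230 to 2670 CPM in kidney tumors and 388 to 727 CPM in controls. Of 8 mural and smooth muscle markers 2 rose and 0 fell, with a median log2 change of 0.12. Rgs5 (68.6 to 167.6 against 38.7 to 49.3 CPM) and Notch3 (49.4 to 107 against 31.6 to 38.8 CPM) were above every control in all 6 tumors, while the others overlapped. The part of either list in the Tbx18 values was not tested. Zic5 was 2.70 ± 2.86 CPM in kidney tumors against 0, 0 and 2 counts in the controls, so it passed the low-count filter through the tumors alone, and its adjusted p is not given. The ratio of the summed, depth-corrected counts was 949 with a 95% interval of 262 to 7836 that covers counting error only, and 528 (146 to 4364) without the 1 library of mouse 4. Of 12 neuronal markers 3 rose in the same comparison (Tubb3, Nefl and Nefm), with sums of 13.1 to 184 CPM in kidney tumors and 6.63 to 7.10 CPM in controls. Of 7 glial markers tested 2 rose, with sums of the 10 listed at 94.8 to 389 CPM against 420.1 to 565 CPM. Their part in the Zic5 values was not tested.

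Zic1 and Zic2 also passed the filter through the tumors alone. Zic1 had 4090 counts over the kidney tumors and 0 in the controls. Taking each count as 1 fragment, that is at least 801-fold higher against a floor of 3 counts over the group. Without the 1 library of mouse 4 it had 136 counts, at least 29.1-fold higher on the same reading. Zic2 had 1203 against 2 counts, a ratio of 353 with a counting interval of 97.6 to 2922, and without that library 86 counts and a ratio of 27.6 (7.42 to 232). Lmx1b changed by 1.42 (SE 0.66, adjusted p = 0.154), and Osr2, Foxc1, Foxc2 and Foxd1 had values of -0.11, 0.22, -0.04 and -0.86 with adjusted p from 0.559 to 0.951.

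Non-transformed kidneys were sampled from 4 of the 6 mice with kidney tumors, mice 1, 3, 4 and 5. Of the 6 genes other than the Zic genes, 1 was called against them, where 17.1% of 21930 genes were. It was Lmx1b, at 2.68 ± 1.93 CPM in kidney tumors and 0.735 ± 0.0936 CPM in non-transformed kidneys (log2 change 1.84, SE 0.56, adjusted p = 0.0466 in edgeR). The lowest tumor, 0.808 CPM, was barely above the highest non-transformed kidney, 0.805 CPM. The call was lost in 9 of its 14 alternatives, and with the animal as a block the change was 1.19 with an adjusted p of 0.235. The summed level of 10 podocyte markers, podocytes being the renal cells that express Lmx1b, was 134.5 to 324 CPM in kidney tumors and 357 to 484 CPM in non-transformed kidneys, and 1 of the 10 fell and 0 rose. Of 10 fibroblast markers 6 rose and 0 fell, with sums of 474 to 959 CPM in the non-transformed kidneys. The part of either cell type in the Lmx1b values was not tested. The Zic genes had few counts in most non-transformed kidneys and are given by their levels alone. Zic5 was 0.0366, 0.984, 0.0826 and 0.0511 CPM in mice 1, 3, 4 and 5, within the range of the kidney tumors (0.490 to 8.28 CPM) in mouse 3 and below it in the other 3. Zic1 was 0.0183, 1.70, 0.132 and 0.0511 CPM, and the kidney tumors other than that of mouse 4 held 0 to 0.236 CPM.

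Between non-transformed and control kidneys, 6 of the 9 genes passed the low-count filter and 0 were called by edgeR (1 at an unadjusted p under 0.05, and 0 called by DESeq2), where 0.00952% of 21019 genes (2 genes) were. Osr2 was the lowest of the fold changes at -0.55 (SE 0.20, adjusted p = 0.342), with all 4 non-transformed kidneys below all 3 controls. Zic1 and Zic5 did not pass the filter. They were above the controls in all 4 non-transformed kidneys, on 198 against 0 counts for Zic1 and on 120 against 2 counts for Zic5. Taking each count as 1 fragment, Zic1 was at least 106.6-fold higher against a floor of 3 counts over the group. Most of these counts came from mouse 3, with 176 counts of Zic1 (1.70 CPM) and 102 of Zic5, and the bound without mouse 3 was not computed.

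The fetal comparison asks what the fusion gene does when it is switched on in the developing nephron. Here 7 of the 9 passed the filter and 0 were called by edgeR (2 at an unadjusted p under 0.05, and 1 called by DESeq2), against 2.67% of 22690 genes. Zic1 came nearest, at 7.62, 4.06, 6.41, 20.3 and 11.5 CPM in dysmorphic fetuses 1 to 5 and 1.76, 0.931 and 0.0900 CPM in control fetuses 1 to 3. The groups did not overlap, and the log2 difference was 3.43 (SE 0.95, adjusted p = 0.0973 in edgeR and 0.000294 in DESeq2, the only member DESeq2 called). The ratio per kilobase of Zic5 to Zic1 was 0.00324 to 0.0401 in the 4 dysmorphic kidneys where it could be formed. It was 0.0799, 0.102 and 0.699 in control fetuses 1 to 3, the last on 6 counts of Zic5 and 10 of Zic1. In the same comparison 9 of 10 skeletal muscle markers rose, and their summed level was 3285 to 7616 CPM in the dysmorphic and 1485 to 1741 CPM in the control kidneys. Of 10 fibroblast markers 4 rose and 0 fell, with sums of 9609 to 21290 CPM against 5086 to 6646 CPM. Leaving out 1 fetus gave 0 to 1247 called genes over all genes tested, so the calls of both lists can be lost with a single fetus. The part of either list in the Zic1 values was not tested.

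Tbx18 stood at 13.6, 4.80, 15.4, 12.8 and 5.88 CPM in the dysmorphic fetal kidneys and 3.31, 3.05 and 8.69 CPM in the controls (log2 difference 1.07, SE 0.53, adjusted p = 0.304 in edgeR). Foxc1 and Foxc2 had differences of -1.56 (SE 0.75, adjusted p = 0.292) and -2.37 (SE 0.95, adjusted p = 0.214). Control fetus 3 stood apart from the other 2, with 21.3 CPM of Foxc1 against 360 and 167, 12.9 CPM of Foxc2 against 266 and 124, and 0.864 CPM of Foxd1 against 51.5 and 21.5. It also held 2.23 CPM of Pax8 against 39.1 and 27.2, and 1.87 CPM of the renal factor Pax2 against 77.2 and 34.5. Its Pax8 lay within the range of the dysmorphic kidneys, 0.225 to 9.12 CPM. All fetal contrasts thus include 1 control low in renal epithelial markers. The fetus names start with 1 of 2 codes, whose meaning the labels do not give, and control fetus 3 is the only control with the second code, which dysmorphic fetuses 4 and 5 share. Within that code Foxc1 was 21.3 and 63.5 CPM in the dysmorphic kidneys against 21.3 CPM in control fetus 3, and Zic1 was 20.3 and 11.5 CPM against 0.0900 CPM. With the code as a term in the edgeR fit 0 members were called, and the differences were 3.23 for Zic1 (adjusted p = 0.134), -1.04 for Foxc1 (adjusted p = 0.405) and -1.78 for Foxc2 (adjusted p = 0.286). Osr2 was 34.1 ± 13.3 CPM (n = 5) in dysmorphic and 36.0 ± 8.13 CPM (n = 3) in control fetal kidneys, with a log2 difference of -0.07 (SE 0.35).

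The other factors of cranial mesenchyme were read from a list of 25 genes, of which 18 passed the filter in the comparison of retro-orbital with kidney tumors. Of these, 8 rose and 1 fell, beside 8.26% and 9.45% of all 22136 genes tested, and their median log2 change was 1.29 against -0.09 over all genes. This list, like those below, was chosen with earlier results of these data known, so its counts are a description. Prrx1, a homeobox factor of limb and craniofacial mesenchyme, was 89.3, 83.4, 72.1 and 97.8 CPM in the retro-orbital tumors of mice 2, 3, 5 and 6 and 2.68 to 24.3 CPM in the kidney tumors (log2 change 3.10, SE 0.50, adjusted p = 0.00378 in edgeR). Twist1, a basic helix-loop-helix factor of the cranial neural crest and sutures, was 3.78 to 7.20 CPM against 0.00966 to 1.08 CPM (log2 change 4.10, adjusted p = 0.0195). Msx1 (3.20, adjusted p = 0.00432), the skull and limb factor Alx4 (4.81, adjusted p = 0.0469), Prrx2, Runx2, Snai2 and Ets1 rose too, and the chondrogenic factor Sox9 fell by 4.36 on the log2 scale (adjusted p = 0.0119). Without mouse 3 the number that rose was 4, and without mouse 2 or mouse 6 it was 5. The calls of Alx4, Prrx2, Twist1, Sox9 and Runx2 were lost in 7, 6, 4, 4 and 1 of their 14 alternatives, with adjusted p up to 0.147, 0.225, 0.0813, 0.0742 and 0.0727. Of 10 fibroblast markers 4 rose and 0 fell in the same comparison, with a median log2 change of 1.27 and sums of 2544 to 4667 CPM in the retro-orbital tumors, and 10 tubule markers had a median of -3.41 with 1 fallen. Their part in the values of the cranial factors was not tested.

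Alx1, a homeobox factor of the periocular neural crest, stood at 173, 154, 51.4 and 127 CPM in the retro-orbital tumors of mice 2, 3, 5 and 6. In the kidney tumors it was at most 1.75 CPM except in mouse 5, at 51.5 CPM, which is also the mouse whose kidney tumor was highest in Foxc1 (346 CPM) and Osr2 (34.2 CPM). The log2 difference was 3.73 (SE 1.34, adjusted p = 0.0812 in edgeR) with mouse 5 and 7.12 (adjusted p = 0.000178) without it. The forkhead gene Foxl2, a factor of eyelid and ovary, was 2.62, 2.98, 2.29 and 3.18 CPM in the retro-orbital tumors and 0 to 0.706 CPM in the kidney tumors, the highest again in mouse 5 (log2 difference 4.62, SE 1.70, adjusted p = 0.0876).

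**Figure D4:**
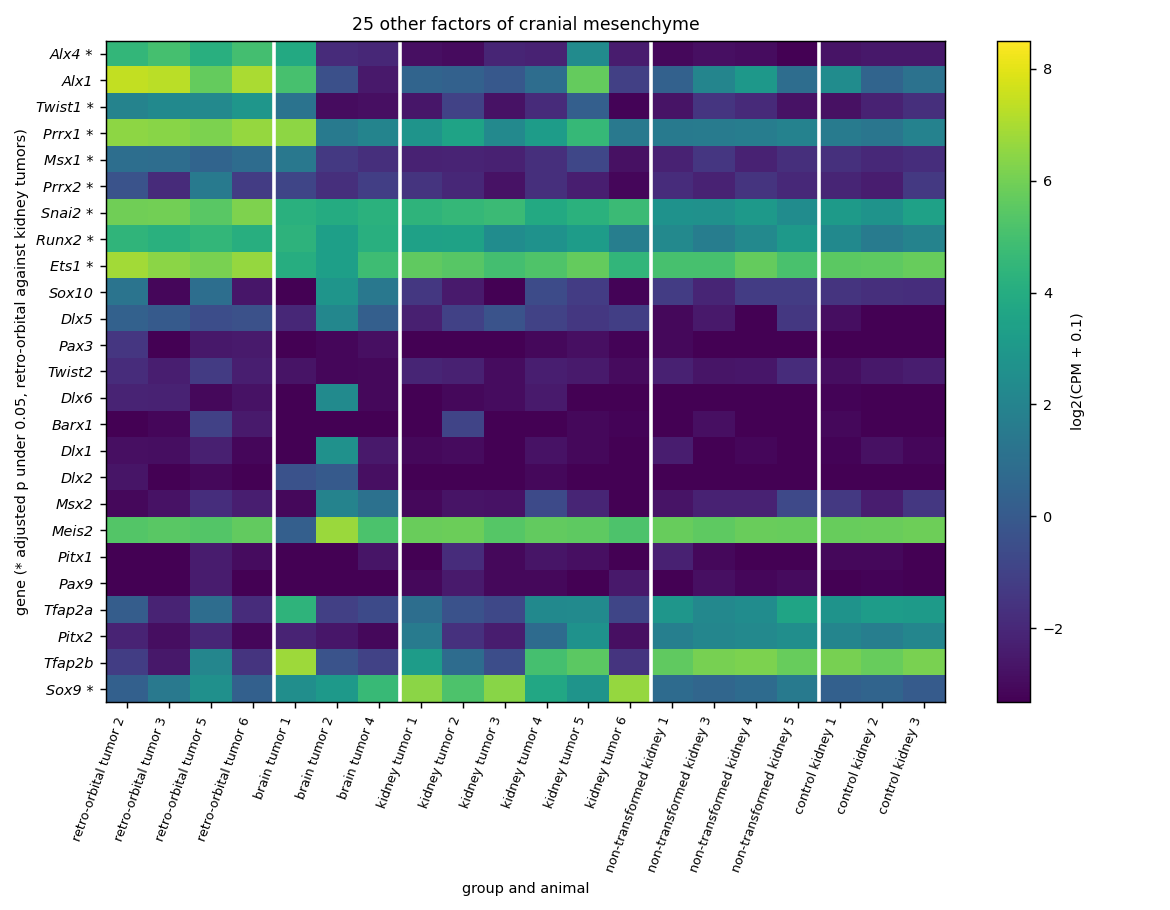
Level of the 25 other cranial mesenchyme factors as log2(CPM + 0.1) (color) in each adult sample, 1 column per animal and tissue and 1 row per gene, with a star at genes with an adjusted p under 0.05 between retro-orbital and kidney tumors. The retro-orbital tumors are high in Alx1, Alx4, Prrx1 and Twist1, and the brain tumor of mouse 1 shares much of this pattern while those of mice 2 and 4 do not.

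Between brain and kidney tumors 0 of 19 tested cranial factors were called in edgeR, beside 4.54% of 23391 genes that rose and 4.20% that fell, with 7 of the 19 at an unadjusted p under 0.05 and 6 called by DESeq2. Between brain and retro-orbital tumors 0 of 19 rose and 2 fell (Snai2 and Ets1, by 1.77 and 2.33 on the log2 scale), beside 0.395% and 1.34% of 21037 genes. Fibroblast markers were lower in the brain tumors, with 6 of 10 fallen against kidney tumors, 4 of 10 fallen against retro-orbital tumors and sums of 602 to 2350 CPM. The number of cranial factors called against retro-orbital tumors was 8 without mouse 1, 1 without mouse 5 and 0 without mouse 2, 3 or 6, so it turned on single animals. The brain tumor of mouse 1 held Alx1 (33.7 CPM), Alx4 (14.5 CPM), Prrx1 (89.9 CPM) and Tfap2b (108 CPM) at levels that mice 2 and 4 lacked, beside its high Foxc1, Foxd1, Tbx18 and Lmx1b. In its summed cranial factors, 333 CPM, it lay between the other brain tumors and the lowest retro-orbital tumor, mouse 5 at 341.6 CPM, while the other 3 retro-orbital tumors summed to 493 to 538 CPM.

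Of 15 relatives of the 9 genes from the same families, 2 of 11 tested rose in retro-orbital against kidney tumors, namely Tbx15, the closest relative of Tbx18 (log2 change 3.26, SE 0.98, adjusted p = 0.0441 in edgeR), and Foxf2 (5.08, SE 1.05, adjusted p = 0.00992). These calls were lost in 7 and 2 of their 14 alternatives, with adjusted p up to 0.107 and 0.0756. Tbx1, a T-box factor of the pharyngeal arches, was 139.8 ± 81.6 CPM (n = 6) in kidney tumors against 0.164 ± 0.0306 CPM (n = 3) in control kidneys (log2 change 9.76, SE 1.03, adjusted p = 0.000568). It was also high in the brain tumors (119 to 227 CPM) and was 15.5, 0.752, 36.2 and 1.46 CPM in the retro-orbital tumors of mice 2, 3, 5 and 6. Zic4, which shares its locus with Zic1, was 15.9, 7.98 and 14.2 CPM in the brain tumors and 2.27 CPM in the kidney tumor of mouse 4, whose 2 libraries held 4.52 and 0.0205 CPM. In the fetal kidneys 2 of 12 tested paralogs rose, Foxd3 (1.51, SE 0.30, adjusted p = 0.0449) and Tbx15 (2.45, SE 0.47, adjusted p = 0.0412), and neither was called with the name code as a term (adjusted p = 0.0549 and 0.0527).

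A list of 11 genes known to lie downstream of Foxc or Lmx1b factors in vessels and podocytes was tested in full. Of these, 4 rose in retro-orbital against kidney tumors, the Notch ligand gene Dll4 (2.27), the chemokine receptor gene Cxcr4 (2.04), the endothelial cadherin gene Cdh5 (2.27) and the lymphatic receptor gene Flt4 (0.85), and Cd2ap fell by 0.91 (adjusted p 0.00116 to 0.0127 in edgeR). The calls of Dll4 and Flt4 were each lost in 1 of 14 alternatives (adjusted p up to 0.056 and 0.0706). The same 4 vascular genes fell in brain against retro-orbital tumors, by 3.76, 3.02, 3.49 and 2.95, with adjusted p from 0.0212 to 0.0331, and each call was lost in 3 of its 12 alternatives (adjusted p up to 0.136 to 0.168). In brain against kidney tumors Flt4, Cd2ap and the collagen gene Col4a3 fell by 2.01, 0.98 and 5.37, calls lost in 1, 2 and 7 of their 14 alternatives. The vascular genes are also endothelial genes, and how much endothelium each tumor held was not tested. Both Cxcr4 (1.37) and Flt4 (0.69) rose in kidney tumors against control kidneys, calls lost in 3 and 7 of their 16 alternatives (adjusted p up to 0.079 and 0.113).

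Of 18 meningeal markers, 2 rose and 3 fell of 17 tested in retro-orbital tumors, and 2 rose and 3 fell of 18 tested in brain tumors, both against kidney tumors, where 8.26% and 9.45% of all genes rose and fell in the first and 4.54% and 4.20% in the second. In the brain tumors the risers were Crabp2, a retinoic acid binding protein of the arachnoid (138 ± 109.9 against 18.3 ± 12.8 CPM, log2 change 2.99, adjusted p = 0.0394 in edgeR), and the connexin gene Gjb6 (6.88, adjusted p = 0.0338). These calls were lost in 7 and 5 of their 14 alternatives, with adjusted p up to 0.312 and 0.368, and with the animal as a block 0 genes of all tested were called in brain against kidney tumors (2870 at an unadjusted p under 0.05 in edgeR). In kidney tumors against control kidneys, 4 of the 18 rose (Crabp2, Ptgds, Slc6a13 and Ngfr, by 7.75, 7.35, 4.06 and 5.48 on the log2 scale) and 1 fell (Dpp4, -1.48). The median over the list was 0.46, and -0.53 against non-transformed kidneys. The 18 genes summed to 1475 to 3879 CPM in kidney tumors and 829 to 3064 CPM in brain tumors.

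Within 100 kb of the start sites lay 46 other annotated genes. Beside Lmx1b, the antisense transcript C130021I20Rik, whose start is 682 bp away on the other strand, rose with it in kidney tumors against non-transformed kidneys (log2 change 1.93, SE 0.54, adjusted p = 0.0351 in edgeR), a call lost in 7 of its 14 alternatives. The pseudogene Gm13529, 12287 bp from Lmx1b, rose in the same comparison (2.49, adjusted p = 0.0213, lost in 3 of 13), as did Utp15, a ribosome biogenesis gene beside Foxd1 (0.77, adjusted p = 0.0229, lost in 4 of 14). Beside the Zic genes, chosen on these contrasts, 7 of 17 neighbors passed the filter in brain against kidney tumors, Zic4 (above) among them, and their levels in these tumors are given with no test. Gm37040 at Zic1 had a mean of 0.0872 CPM in brain and 0.00168 CPM in kidney tumors, and at Zic2 and Zic5 2610035F20Rik had 0.171 and 0 CPM, Gm10837 2.37 and 0.0579 CPM and Pcca 165 and 169 CPM. Of 2 genes that carry the symbol Gm5089, the protein-coding one had 1.98 and 0.0565 CPM and the antisense one 0.0957 and 0.00504 CPM. Pcca, a mitochondrial carboxylase gene 58889 bp from Zic2, fell by 1.08 in kidney tumors against control kidneys (adjusted p = 0.0173 in edgeR, lost in 3 of 16 alternatives). Reads of neighbors on opposite strands can be shared where they overlap.

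The genes whose level was most like that of each factor over the 13 tumor samples were listed by Pearson's r on log2(CPM + 0.1) among 14270 genes, as a description, since the samples share mice, sites and total RNA libraries. For Osr2 they were Olfr558 (0.984), Btnl9 (0.975) and Notch1 (0.973), and for Foxc1 Tcf7l1 (0.954), Grasp (0.937) and Kcne4 (0.932). For Foxd1 they were Grip2 (0.934), Fgfr2 (0.921) and Ano5 (0.904), for Foxc2 Etv5 (0.891) led, for Tbx18 Nup107 (0.951) and for Lmx1b Rfwd3 (0.843), the weakest of the leading values. Zic4 led for Zic1 (0.989), Zic2 (0.988) and Zic5 (0.933). Ranked by Spearman's rho in place of Pearson's r, 0 to 2 of the 3 genes stayed in each list.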

How the data were processed

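RNA-sequencing counts of 36 libraries from formalin-fixed mouse tissue were used. The authors deposited raw counts per Ensembl gene in 2 tables, one for the Sglt2-Cre model (28 libraries) and one for the Pax8-Cre fetuses (8 libraries). Per the labels, total RNA libraries were stranded and were made without depletion of ribosomal RNA, and the submitters' processing notes name STAR 2.5.2a, Bowtie2, FastQC and MultiQC with GRCm38. The counting tool and its strand setting are not given in the sources used here. Of the counts between 1 and 20, 79.04 to 84.33% per library were even, as counting both mates of a pair would give. Thus 1 fragment may stand for 2 counts, counting intervals are too narrow, and the fold bounds against a floor of 3 counts may be too high. No column of another sample was present (0). Gene symbols came from GENCODE M21.

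Counts were summed over libraries of the same animal and tissue. A comparison used only the animals of its 2 groups, in edgeR 4.0.16 (TMM, filterByExpr, quasi-likelihood F-test), Benjamini-Hochberg adjusted over all genes tested and called under 0.05. Labels that pair tissues by mouse number name the same animal. The deviations of same-numbered samples from their group means correlated at -0.06 to 0.158 for kidney tumor and non-transformed kidney, 0.247 to 0.329 for retro-orbital and kidney tumor and -0.072 to -0.061 for brain and kidney tumor over 16177 genes, and the fits with the animal as a block are alternatives. The fetus names share 1 of 2 starting codes across groups, and the labels do not say whether a code marks a litter, so the code as a term is an alternative and p-values measure the spread between these samples. The members, the gene lists and the tests were chosen with earlier results of these data known. Some genes of the lists are not reported here, and the counts, medians and sums are over the rest. Named genes were the members, genes of the lists, annotated genes within 100 kb, and for each member the 3 most alike genes with a mean of at least 1 CPM. Alternatives were other scalings, no low-count filter, halved counts, DESeq2 1.42.0, every library as a sample, the block and leaving out each animal, and, chosen after the data were seen, leaving out 1 kidney tumor library of mouse 4. The fits were tested on simulated data. Promoter windows came from RefSeq (GRCm38.p6). No duplicate libraries were found. No paired fit was made of brain against retro-orbital tumors, which share 1 mouse.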

Additional observations from a re-analysis of the deposited data

Results flagged for a closer look

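Of 36 levels of the 9 genes in groups of 4 to 6 animals, 12 held a highest animal far from the next by Dixon's criterion. Chance gives about 1 in 20 independent groups, but these levels share animals and include the tumor values that chose the genes, so the count is a description. Of these, 3 lay in the kidney tumor of mouse 4, at 19.98 CPM of Zic1 (next 0.2355), 5.636 CPM of Zic2 (next 0.2835) and 8.275 CPM of Zic5 (next 2.547). All 3 came from 1 of its 2 libraries, with 39.8, 11.2 and 15.9 CPM against 0.143, 0.0205 and 0.594 CPM in the other. The first library also held Rbfox3 (18.6 against 1.67 CPM), Snap25 (13.9 against 0.348 CPM) and Gad2 (10.4 against 0.0102 CPM), but less Nefl (2.45 against 201 CPM).

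The retro-orbital tumor of mouse 5 was far above the others in Zic1 (6.899 CPM, next 0.2923), Zic2 (1.8 CPM, next 0.1027) and Foxd1 (1.082 CPM, next 0.1137). It is the sample with the summed lacrimal and Harderian gland markers at 443 CPM.

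The non-transformed kidney of mouse 3 was far above the others in Zic1 (1.697 CPM, next 0.1322), Zic2 (0.569 CPM, next 0.08261) and Zic5 (0.9838 CPM, next 0.08261). Otx2, from the list of choroid plexus and ependymal markers, was 0.559 CPM there (next 0.0256), while the other genes of that list were not highest there. Otx2 was also 4.85 CPM in the kidney tumor of mouse 4 (next 0.251) and 1.29 CPM in the retro-orbital tumor of mouse 5 (next 0.114). In the brain tumors of mice 1, 2 and 4 it was 0, 28.1 and 26.4 CPM. Its part in the Zic values was not tested.

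The kidney tumor of mouse 5 held 345.7 CPM of Foxc1 (next 116.7), beside the highest Osr2 and Alx1 of the kidney tumors. Dysmorphic fetus 5 was far above the other dysmorphic fetuses in Zic2 (0.9989 CPM, next 0.2064) and Zic5 (0.3961 CPM, next 0.0825), and its 12 neuronal markers summed to 377 CPM against 34.9 to 50.9 CPM in the other dysmorphic fetuses. The cause of these values was not tested.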

How the results depend on the processing

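Counts of called genes moved with the tool, the unit of replication, the animal as a block and single animals left out. With DESeq2 the count was 7176 for kidney tumors against controls (4474 in edgeR), 5916 against non-transformed kidneys (3755), 580 for non-transformed against control kidneys (2), 2608 in the fetuses (605), 6088 for retro-orbital against kidney tumors (3919), 5097 for brain against kidney tumors (2044) and 3051 for brain against retro-orbital tumors (364). With every library as its own sample, 9405, 227 and 4052 were called against controls, for non-transformed against control kidneys and for brain against kidney tumors, and with no low-count filter 6 for non-transformed against control kidneys. Leaving out 1 animal gave 1163 to 5856, 1252 to 3873, 0 to 10, 0 to 1247, 1635 to 4089, 300 to 1528 and 0 to 1316 in the same order of the 7 comparisons.

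Against control and non-transformed kidneys the Zic genes are left out of the counts of members, for the reasons given above. Of the other 6, only Tbx18 was called against control kidneys in any setting, and its call was lost in 2 of 16 alternatives. Against non-transformed kidneys only Lmx1b was called. Its call was lost in 9 of 14 alternatives, among them no filter and every library as a sample. In the fetuses DESeq2 called 1 member (Zic1). The cranial factors that rose in retro-orbital tumors numbered 4 to 8 without 1 animal. Those called between brain and kidney tumors were 1 with no filter, 6 with DESeq2, 3 with every library as a sample and 0 to 1 without 1 animal, and between brain and retro-orbital tumors 6 with DESeq2 and 0 to 8 without 1 animal. With the animal as a replicate block, 847 genes and 0 members were called against non-transformed kidneys, 2677 genes in retro-orbital against kidney tumors, and 0 genes (2870 at an unadjusted p under 0.05) and 0 cranial factors in brain against kidney tumors. The block also turned the signs of Foxc2 (0.23), Zic1 (0.71), Zic2 (0.83) and Zic5 (0.45) in retro-orbital against kidney tumors. No paired analysis was possible for brain against retro-orbital tumors because they share 1 mouse.

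The signs that turned, in log2 units, were those of members that were not called or carry no test, and ranges are over leaving out 1 animal. Against controls, Osr2 ran from -0.48 to 0.08, Foxc1 from -0.32 to 0.67 (-0.01 without control 2 and with every library as a sample) and Foxc2 from -0.17 to 0.13. Against non-transformed kidneys, Osr2 ran from -0.11 to 0.61, Foxc1 from -0.76 to 0.04, Zic1 from -2.20 to 5.86 (-1.81 without the 1 library of mouse 4) and Zic2 from -1.25 to 5.27. Between non-transformed and control kidneys Lmx1b ran from -0.70 to 0.00. In the fetuses Osr2 ran from -0.25 to 0.08, Foxd1 from -1.52 to 0.18 and Lmx1b from -0.45 to 0.90. In retro-orbital against kidney tumors Foxc2 ran from -0.43 to 0.05, Lmx1b from -0.32 to 0.74, Zic1 from -4.71 (without mouse 5) to 3.85 (without mouse 4), Zic2 from -4.34 to 2.64 and Zic5 from -1.10 to 0.35, and without the 1 library the last 3 were 3.83, 2.81 and 0.51. Foxc1 ran from -0.78 to 1.57 in brain against kidney tumors and from -1.79 to 0.65 against retro-orbital tumors, where Tbx18 ran from -0.59 to 2.80. Osr2 kept its direction between the tumor sites in every alternative run. In order of level, 7, 7 and 5 of the 9 members kept their place per kilobase of exon in retro-orbital, brain and kidney tumors. The cause of these changes was not tested.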
